A study of Mus musculus with 2 samples.

Results

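The 5 genes that carry the RANKL, OPG and M-CSF signals for osteoclast formation were followed through 2 single-cell RNA libraries of the mouse femoral metaphysis: Tnfsf11 (RANKL), Csf1 (M-CSF), Tnfrsf11b (OPG), Tnfrsf11a (RANK) and Csf1r (the M-CSF receptor), 5 of the 27998 genes counted. They were selected by symbol, with their levels in these libraries already known, so the levels below are a description and carry no test. Both libraries came from Gli1-CreERT2; Ai9 mice of mixed background, 1 month old, given tamoxifen on 3 days and then 3 daily injections of either vehicle or teriparatide (400 ng per g body weight, intraperitoneal). By the paper the mice were killed the day after the last injection, so the levels describe that time and not the hours after a dose. Gli1-driven Cre, active while tamoxifen is present, turns on tdTomato in Hedgehog-responsive cells and in their later progeny. The paper reports such labeling beneath the growth plate and also within it, and states that the growth plate was removed before digestion. It also states that hypertrophic chondrocytes nearest the trabecular bone lacked tdTomato. A class named below by markers of such cells was nonetheless in the sorted libraries. From the digested metaphysis tdTomato+ CD31- CD45- Ter119- cells were sorted. Each condition has 1 library, from 5 mice by the study's methods (3 male and 2 female), so no difference has a replicate check, and every interval given is a 95% interval for counting error only.

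RANKL is a membrane-bound or shed ligand of the TNF family that binds RANK on cells of the monocyte lineage and drives them to become bone-resorbing osteoclasts. M-CSF, acting through its own receptor, keeps those precursors alive and dividing, and OPG is a secreted decoy receptor that binds RANKL and keeps it from RANK. Osteoblasts, osteocytes, hypertrophic chondrocytes and stromal cells of the marrow are all known sources of ligand or decoy, and parathyroid hormone is known in other settings to raise RANKL and lower OPG.

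The stretches of 250 bases upstream of the annotated start are shown for the genes of both ligands, which shared the same leading cell class. They are RefSeq sequence of build GRCm38.p6, on the minus strand, at chr14:78308044-78308293 for Tnfsf11 and chr3:107760470-107760719 for Csf1, written 5′ to 3′ with motif matches in capitals.
Tnfsf11: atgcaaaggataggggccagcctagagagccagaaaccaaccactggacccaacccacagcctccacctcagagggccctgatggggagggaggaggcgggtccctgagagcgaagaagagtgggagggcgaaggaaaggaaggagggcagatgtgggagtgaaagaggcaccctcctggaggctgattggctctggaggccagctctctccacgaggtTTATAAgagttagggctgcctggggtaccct
Csf1: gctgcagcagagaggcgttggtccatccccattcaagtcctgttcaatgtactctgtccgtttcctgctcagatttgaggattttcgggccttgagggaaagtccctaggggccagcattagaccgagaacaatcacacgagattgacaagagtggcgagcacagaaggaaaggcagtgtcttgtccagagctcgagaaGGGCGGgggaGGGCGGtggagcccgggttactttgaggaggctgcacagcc
Motifs were searched on both strands, namely TGTGGT and TGCGGT (RUNX core), TGACG (cyclic AMP response element core), AGGTCA (nuclear receptor core), GGGCGG (GC box) and TATAA (TATA). The Tnfsf11 stretch held TATAA on both strands, overlapping, between 31 and 26 bases before the start, and TATAA was found in 22.8% of 32851 promoter stretches of this length. Csf1 held GGGCGG on 2 occasions, from 51 to 46 and from 41 to 36 bases before the start, against 32.7% of all stretches with at least 1. Neither stretch held the other motifs, which stood in 14.0% (TGTGGT), 5.10% (TGCGGT), 17.8% (TGACG) and 14.0% (AGGTCA) of all stretches. A match is a run of letters, not a binding site.

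After filters 549 of 1286 vehicle barcodes and 1217 of 2142 teriparatide barcodes were kept, with medians of 10875 and 14556 UMIs (unique molecular identifiers, 1 per captured transcript). Cells were assigned by marker genes to these classes: marrow adipogenic lineage precursors (MALP; 182 vehicle and 95 teriparatide cells), preosteoblasts (preOB; 18 and 24), osteoblasts (OB; 119 and 132) and chondrocyte-like osteoprogenitors (COP; 65 and 257). Further classes were hypertrophic chondrocytes (8 and 27) and osteocyte-like cells (7 and 22). The latter were defined by Mepe, Phex and Sost, with Sost in 0 vehicle cells and in 13.6% of teriparatide cells. These 6 classes are called mesenchymal here, which leaves out 2 and 7 mural-like cells, 0 and 6 fibroblast-like cells, and 30 and 56 cells that the markers left unassigned. Most of the markers that set the mesenchymal classes were broadly held by them. Adipoq, in 95.6% of vehicle and 78.9% of teriparatide MALP cells, was the least even of the MALP markers between the libraries. Among the OB markers Dmp1 was in 37.0% of vehicle and 63.6% of teriparatide OB cells. The part of Dmp1 cells in the OB differences below was not tested. Blood cells passed the sort as well, among them 19 and 107 monocyte-macrophage cells. Blood RNA in mesenchymal cells moved with the library: the 5 neutrophil markers summed to 59.8 and 224 CPM in MALP cells and to 11.7 and 129 CPM in COP cells, vehicle and teriparatide, and 6 erythroid markers to 132 and 221 CPM and to 12.3 and 74.5 CPM. Its part in the results was not tested. Only 2 barcodes occurred in both libraries. Where sex could be read from Xist and Y-linked genes, 52.9% of vehicle and 90.5% of teriparatide mesenchymal cells were male. Sex composition therefore moved with treatment, and the main differences below are also given for each sex alone.

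Tnfsf11 was mainly a MALP transcript, almost wholly so in the vehicle library. Of the 1318 Tnfsf11 UMIs in kept vehicle cells 98.6% lay in MALP cells, and of 656 in kept teriparatide cells 67.7% did. Summed over the class, the level was 647 counts per 1000000 UMIs of the class (CPM; interval 612 to 683) in vehicle MALP cells and 359 CPM (327 to 394) in teriparatide MALP cells. The next mesenchymal class in the vehicle library was preOB at 33.1 CPM (14.3 to 65.2), followed by OB at 2.93 (1.18 to 6.04), and COP, osteocyte-like and hypertrophic cells had no UMI. Among teriparatide cells the 7 mural-like cells (159 CPM; 79.6 to 285; 11 UMIs) and the unassigned cells (129 CPM; 104 to 158) came next after MALP. Of the other mesenchymal classes osteocyte-like cells (40.6 CPM; 16.3 to 83.6) and preOB (40.2; 22.5 to 66.2) were highest and did not differ beyond their intervals. The osteocyte-like value came from 7 UMIs in 2 of 22 cells, 6 of them in 1 cell. Below these 2 classes hypertrophic chondrocytes (9.66; 3.89 to 19.9), COP (7.78; 5.94 to 10.0) and OB (6.88; 4.14 to 10.8) overlapped one another. Erythroid cells, which should lack the gene, held 1 UMI in 47 vehicle cells and none in 163 teriparatide cells, and monocyte-macrophage cells and neutrophils held none in either library.

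**Figure D1:**
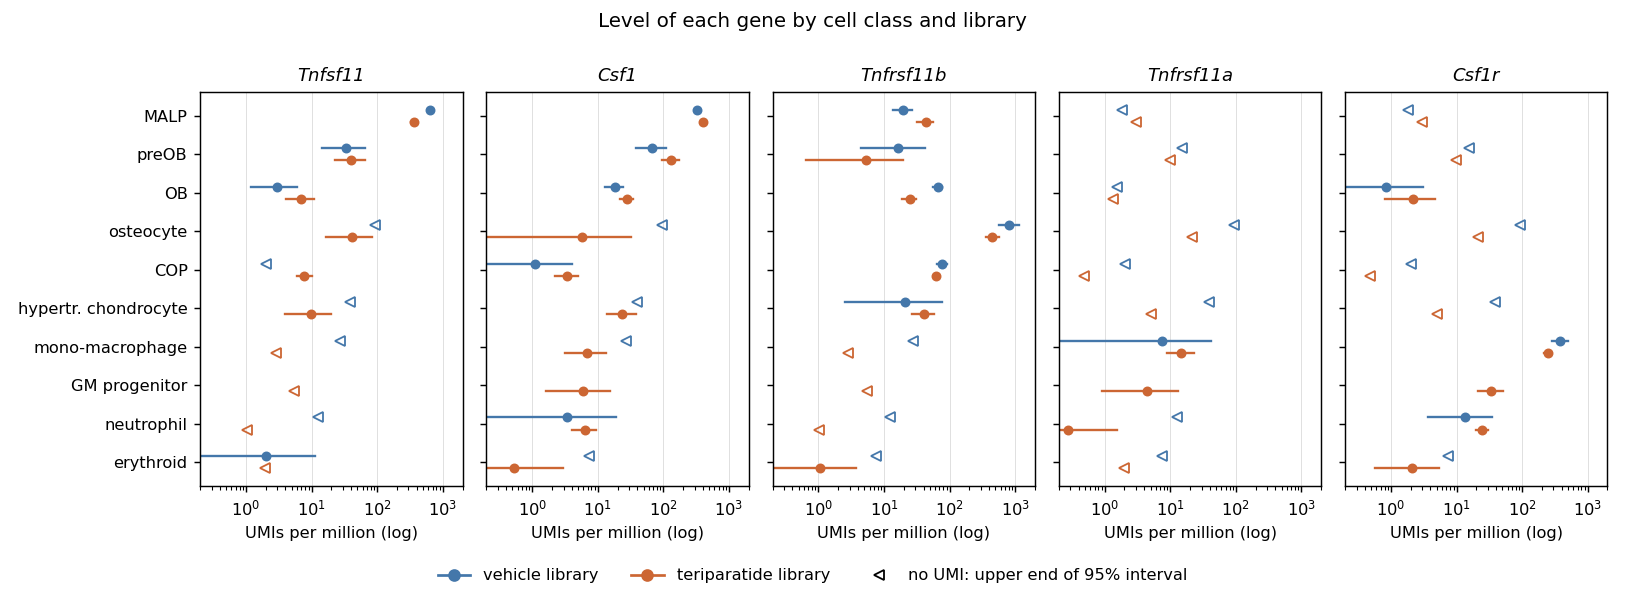
Level of each gene (CPM, log axis) by cell class in the vehicle and teriparatide libraries; points are class sums, lines 95% counting intervals, cut at the left edge of the axis, and open triangles mark the upper end where no UMI was found; classes under 5 cells in a library are left out. Tnfsf11 and Csf1 peak in MALP cells (647 and 323 CPM in the vehicle library), Tnfrsf11b in osteocyte-like cells (816 CPM) and Csf1r in monocyte-macrophage cells (377 CPM).

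In MALP cells Tnfsf11 was lower with teriparatide, by a log2 ratio of -0.85 (interval -1.01 to -0.69). Of all 7363 genes with 50 or more UMIs in MALP cells, 9.94% were lower and 7.56% higher by 1.5-fold or more, around a median log2 ratio of -0.06. The share of MALP cells with a Tnfsf11 UMI did not follow the level: 146 of 182 vehicle cells (80.2%; 73.7 to 85.7) and 84 of 95 teriparatide cells (88.4%; 80.2 to 94.1) had one. Teriparatide MALP cells were the deeper, with a median of 13361 against 10960.0 UMIs, and thinning each cell to 3400 UMIs brought the shares to 70.9% and 63.0%. The median cell held 419 CPM in the vehicle library and 295 CPM in the teriparatide library, and the highest cell 4997 and 1288 CPM. The libraries thus differed more at the upper quartile of cells (812 and 477 CPM, vehicle and teriparatide) than at the lower quartile (153 and 142 CPM). The 3 vehicle cells with most UMIs of the gene had 64, 47 and 44, the 3 teriparatide cells 16, 15 and 14. These extremes come from classes of unequal size. The 3 vehicle cells were female or had no sex call, and the 3 teriparatide cells were male.

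**Figure D2:**
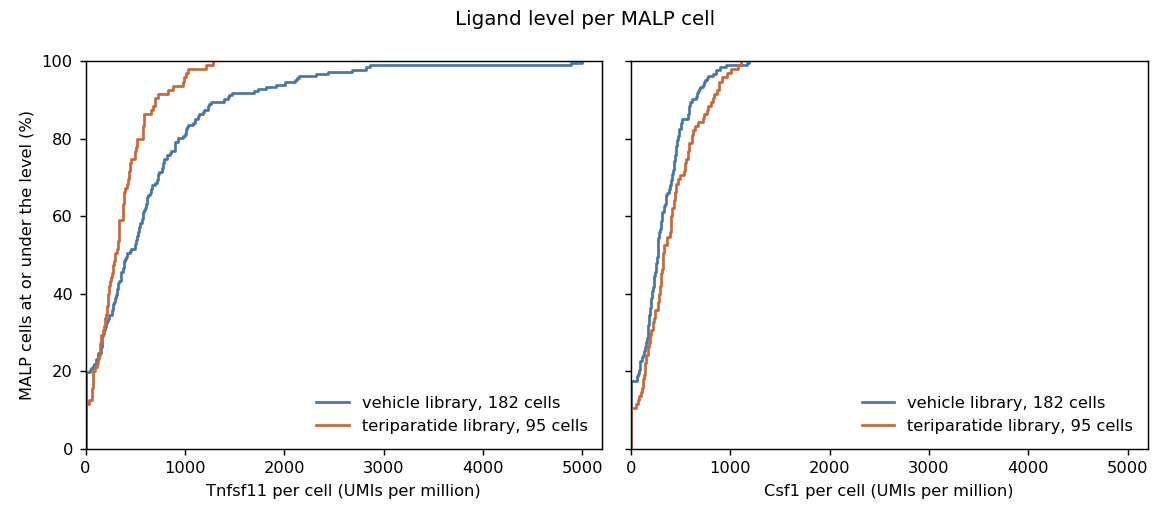
Cumulative share of MALP cells (vertical, percent) at or under a given level of Tnfsf11 (left) or Csf1 (right) per cell (CPM), for 182 vehicle and 95 teriparatide cells. The vehicle Tnfsf11 curve extends to 4997 CPM and the teriparatide curve ends at 1288 CPM, while for Csf1 the teriparatide curve lies to the right of the vehicle curve over most of its range.

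The direction was the same in both sexes. Male MALP cells held 529 CPM (483 to 578; 69 cells) in the vehicle library and 358 CPM (322 to 398; 73 cells) in the teriparatide library, a log2 ratio of -0.56 (-0.76 to -0.36). Female MALP cells held 780.0 CPM (723 to 839; 75 cells) and 400.0 CPM (277 to 558; 8 cells), a log2 ratio of -0.96 (-1.51 to -0.47). Within the vehicle library the level was thus higher in female than in male cells, with intervals that do not meet, whereas the teriparatide intervals overlap. Adipoq, the adipokine gene that marks the adipogenic side of these cells, had a UMI in 174 of 182 vehicle cells and in 75 of 95 teriparatide cells. Cells with Adipoq held 664 CPM of Tnfsf11 (628 to 701) in the vehicle library and 352 CPM (317 to 390.0) in the teriparatide library. Cells without it, few in number, ran the other way, at 183 CPM (97.4 to 313) in 8 vehicle cells and 395 CPM (314 to 489) in 20 teriparatide cells; the part of the lower share of cells with Adipoq in the class-wide difference was not tested.

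COP cells, by contrast, carried Tnfsf11 in the teriparatide library, whereas none was detected in the vehicle library. None of 65 vehicle COP cells had a UMI in a sum of 1795217 UMIs, which at 3 counts allows up to 4.62% of cells with a UMI, and a level of up to 1.67 CPM, and sets no limit on cells that express the gene, and 33 of 257 teriparatide COP cells had 60 UMIs between them (12.8%; 9.01 to 17.6). Against 3 counts in the vehicle sum the teriparatide level was 4.65-fold higher, without the counting error of the teriparatide UMIs. The counting interval of the log2 ratio, which takes in both counts, has a lower end of 1.88. In COP cells 8.02% of 9123 genes with 50 or more UMIs were higher and 16.9% lower by 1.5-fold or more, around a median of -0.20. Depth was close, with medians of 28981 and 30598 UMIs, although thinning to 3400 UMIs left 6 of 253 teriparatide cells with a UMI (2.37%). Male COP cells held 0 UMIs in 53 vehicle cells and 54 UMIs in 221 teriparatide cells, and female COP cells 0 in 9 and 2 in 25.

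The Tnfsf11 UMIs of COP cells came with few of Cxcl12, the chemokine gene that marks MALP cells. MALP cells of the teriparatide library held 60.5 UMIs of Cxcl12 per UMI of Tnfsf11. COP cells held 28 Cxcl12 UMIs beside their 60 Tnfsf11 UMIs, where the MALP proportion gives 3632. OB cells of the same library held 56 beside 19 (1150 at the MALP proportion) and preOB cells 151 beside 15 (908). The vehicle classes lay nearer to the MALP proportion of their own library, with 131 beside 7 in OB (259) and 111 beside 8 in preOB (296). Cxcl12 was among the markers that assigned cells to MALP, so a low count in the other classes was in part set by the assignment. The source of the Tnfsf11 UMIs in these classes was not tested. Clustering of the integrated libraries split most COP cells into 3 clusters, 1 led by Igf1, Spon1 and Pthlh, 1 by Mmp13 and Cd55, with Col10a1 among its leading genes, and 1 by Top2a and other genes of dividing cells. Of the 60 UMIs, 49 lay in the cluster led by Mmp13, in 25 of its 95 teriparatide cells (18.4 CPM; 13.6 to 24.3). The cluster led by Igf1 had 10 UMIs in 7 of 101 cells (3.77 CPM; 1.81 to 6.93) and the dividing cluster 1 UMI in 61 cells. The 25, 23 and 16 vehicle COP cells of the clusters led by Igf1, Mmp13 and Top2a had none. With 23 vehicle cells in the cluster led by Mmp13, its vehicle level is known only to lie below 5.98 CPM, the upper end of the interval. Col10a1, among the leading genes of that cluster, is also a marker of hypertrophic chondrocytes, and whether these cells are COP or cells on the way to hypertrophy was not tested.

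Osteoblast-lineage cells held little Tnfsf11. Only 2 of 119 vehicle OB cells had a UMI (7 UMIs) and 7 of 132 teriparatide OB cells (19 UMIs), a log2 ratio of 1.23 whose interval includes 0 (-0.08 to 2.72), and the 2 cells with most UMIs in each library fell in the preOB cluster when the libraries were integrated and clustered. In preOB the counts were 8 UMIs in 5 of 18 vehicle cells and 15 UMIs in 8 of 24 teriparatide cells (log2 0.28; -1.05 to 1.72), so no difference was detectable at this depth. The integrated clusters draw this border elsewhere. Their preOB cluster of 61 vehicle and 52 teriparatide cells also took in 32 cells that the markers call MALP and 23 that they leave unassigned, and it held 87.5 CPM of Tnfsf11 (67.1 to 112) in the vehicle library and 177 CPM (148 to 211) in the teriparatide library. Of its 128 teriparatide UMIs, 80 came from 12 cells that the markers left unassigned. Those 12 cells had 193662 UMIs in all, a Tnfsf11 level no lower than that of teriparatide MALP cells (444 in 1235481). The 11 unassigned vehicle cells of the cluster held 3 Tnfsf11 UMIs in 96840. Over all classes, unassigned cells held 3 Tnfsf11 UMIs in the vehicle library and 93 in the teriparatide library, or 14.2% of the teriparatide total.

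Csf1 shared the leading class with Tnfsf11 but not the direction. MALP cells held 323 CPM (298 to 349) in the vehicle library and 407 CPM (372 to 444) in the teriparatide library, a log2 ratio of 0.33 (0.16 to 0.51) that is short of 1.5-fold. Cells with a UMI were 150 of 182 (82.4%) and 85 of 95 (89.5%), or 61.4% and 69.6% at 3400 UMIs. Within male MALP cells the levels were 365 and 405 CPM (log2 0.15; -0.06 to 0.36) and within female cells 280.0 and 376 CPM (log2 0.43; -0.15 to 0.96), so neither sex alone gave an interval clear of 0. Both ligands were found in the same cells: 128 of 182 vehicle MALP cells (70.3%) and 78 of 95 teriparatide MALP cells (82.1%) had UMIs of both. As each gene alone had a UMI in most MALP cells, many cells with both follow from that. Whether the genes occurred together beyond it was not tested.

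Among the other mesenchymal classes Csf1 was highest in preOB, at 66.2 CPM (37.9 to 108) and 129 CPM (94.8 to 170.0), vehicle and teriparatide, and then in OB at 18.0 (13 to 24.3) and 27.9 (22.0 to 34.9). Each of these steps down from MALP to OB exceeded the intervals. Outside them the 7 teriparatide mural-like cells held 261 CPM (155 to 412; 18 UMIs), unassigned cells 33.9 CPM (15.5 to 64.4) and 112 CPM (89.1 to 139), and 2 vehicle granulocyte-monocyte progenitors 69.4 CPM on 4 UMIs of 1 cell. The preOB log2 ratio was 0.96 (0.11 to 1.87) on 16 and 48 UMIs, where 9.96% of 1788 genes with 50 or more UMIs were higher and 19.9% lower by 1.5-fold or more, but in the preOB cluster of the integrated libraries it was 0.06 (-0.32 to 0.45). In OB the log2 ratio was 0.63 (0.07 to 1.2), against 5.92% of 6622 genes higher and 12.7% lower by 1.5-fold or more. The OB value was -0.42 (-1.05 to 0.25) in male cells and 2.33 (0.59 to 3.94) in female cells, of which the teriparatide library had 6. Of the 43 vehicle OB UMIs of Csf1, 30 were in male cells, and 19 of those came from 1 cell. The male ratio therefore leaned on 1 cell and the female ratio on few cells. COP cells had 2 UMIs of Csf1 in 65 vehicle cells and 26 in 257 teriparatide cells (log2 1.60; -0.40 to 4.72).

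**Figure D3:**
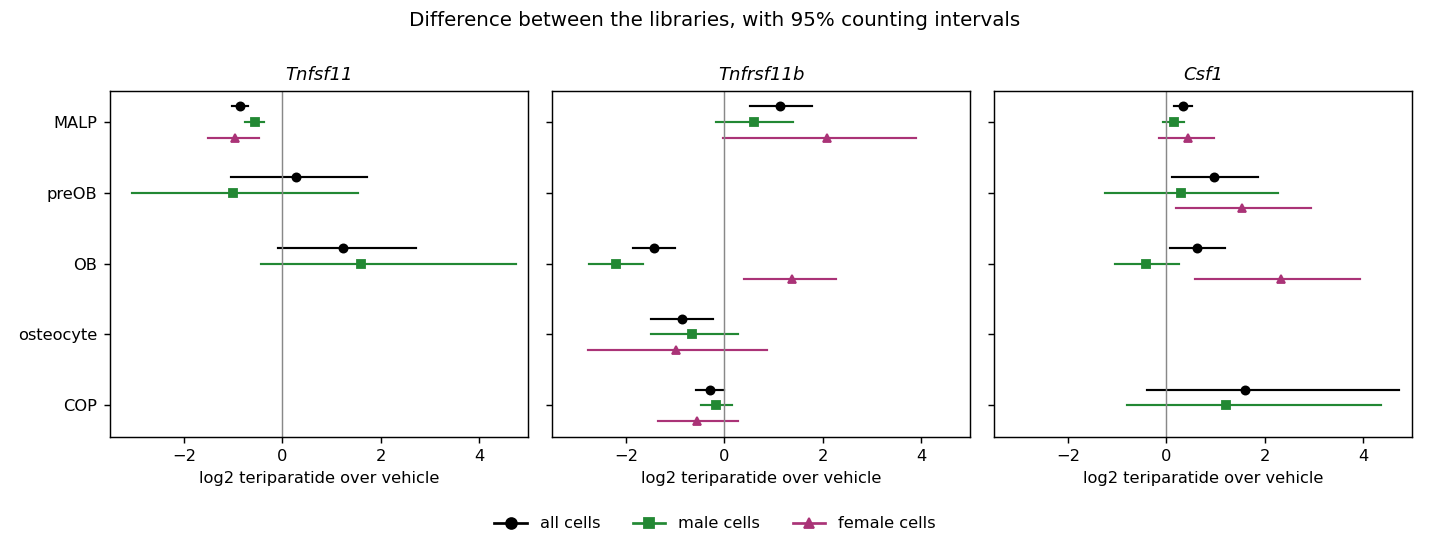
Difference between the libraries (log2 of teriparatide over vehicle CPM) for Tnfsf11, Tnfrsf11b and Csf1 in 5 classes, over all cells and within male and female cells; lines are 95% counting intervals, and ratios with under 10 UMIs or with a count of 0 are not drawn. In MALP cells Tnfsf11 lies at -0.85, Tnfrsf11b at 1.14 and Csf1 at 0.33, and in OB cells Tnfrsf11b lies at -2.20 in male and 1.38 in female cells. Of the 72 Tnfrsf11b UMIs of male vehicle OB cells, 49 came from 1 cell.

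The decoy receptor gene Tnfrsf11b had another distribution than the ligand it blocks. Osteocyte-like cells held the highest level in both libraries, 816 CPM in the vehicle library (558 to 1152; 32 UMIs in 7 cells) and 446 CPM in the teriparatide library (352 to 558; 77 UMIs in 22 cells). COP cells followed at 76.9 CPM (64.6 to 90.8) and 62.6 CPM (57.2 to 68.5). OB cells held 65.8 CPM (55.9 to 76.9) and 24.6 CPM (19.1 to 31.2), next after COP in the vehicle library but the second lowest mesenchymal class of the teriparatide library. Vehicle COP and OB cells did not differ beyond their intervals, whereas teriparatide COP cells lay above OB cells. MALP cells held 19.4 CPM (13.8 to 26.6) and 42.9 CPM (32.1 to 56.1), and hypertrophic chondrocytes 21.1 CPM on 2 UMIs and 40.0 CPM (26.8 to 57.5). By cells, 36 of 65 vehicle COP cells (55.4%) and 143 of 257 teriparatide COP cells (55.6%) had a UMI, and COP cells, the most numerous class of the teriparatide library, held 64.5% of its Tnfrsf11b UMIs. Erythroid cells had 0 UMIs in 47 vehicle cells and 2 UMIs, in 1 cell, among 163 teriparatide cells.

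In MALP cells Tnfrsf11b was higher with teriparatide by a log2 ratio of 1.14 (0.52 to 1.78), on 39 UMIs in 28 of 182 cells and 53 UMIs in 34 of 95 cells. Within male cells the levels were 26.3 and 40.0 CPM (log2 0.60; -0.16 to 1.40), and within female cells 11 and 47.0 CPM on 10 and 4 UMIs (log2 2.09; -0.03 to 3.89). The direction was therefore shared, but neither sex alone gave an interval clear of 0. At 3400 UMIs per cell 9 of 158 vehicle and 10 of 92 teriparatide MALP cells still had a UMI.

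In OB cells Tnfrsf11b ran the opposite way, with a log2 ratio of -1.42 (-1.85 to -1.0). A pair of vehicle cells supplied 49 and 39 of the 157 vehicle UMIs. Both had Dmp1, a gene of late osteoblasts and osteocytes (200 and 165 UMIs), no UMI of the osteoblast gene Bglap, and a place in the integrated cluster of osteocyte-like cells. Without the 3 cells with most UMIs in each library the log2 ratio was -0.69 (-1.27 to -0.12). The sexes differed in direction, but on few cells: male OB cells held 95.3 and 20.8 CPM (log2 -2.20; -2.75 to -1.65) and female OB cells 30.6 and 79.8 CPM (log2 1.38; 0.40 to 2.28), the latter from 58 vehicle and 6 teriparatide cells. The vehicle cell with 49 UMIs was male and supplied 49 of the 72 male vehicle UMIs. Of the 14 female teriparatide UMIs, 7 and 5 came from 2 cells. Osteocyte-like and COP cells pointed down too, at -0.87 (-1.48 to -0.23) and -0.30 (-0.57 to -0.01), but without the 3 cells with most UMIs the ratios were 0.33 (-1.15 to 2.29) and 0.22 (-0.12 to 0.58). Those 3 cells held 87.5% of vehicle and 55.8% of teriparatide UMIs in osteocyte-like cells, and 39.1% and 10.1% in COP cells. Leaving them out trims more of the top of the smaller vehicle classes. It therefore cannot show whether the direction rested on those cells.

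The Tnfsf11 UMIs per Tnfrsf11b UMI in the same cells set ligand against decoy without regard to depth. As the kit counts each molecule once by its 3′ end, these counts were not divided by transcript length. The ratio in MALP cells was 33.3 (24.2 to 47.1) in the vehicle library and 8.38 (6.29 to 11.4) in the teriparatide library, a log2 difference of -1.99 (-2.65 to -1.34). It was lower in male cells alone, at 20.1 and 8.95 (log2 -1.17; -1.99 to -0.37), and in female cells alone, at 70.8 and 8.50 (log2 -3.06; -4.93 to -0.85). Every other mesenchymal class but preOB held more decoy than ligand UMIs in both libraries, hypertrophic chondrocytes of the vehicle library on 2 UMIs only. OB cells had 0.0446 (0.0176 to 0.0940) and 0.279 (0.159 to 0.470) ligand UMIs per decoy UMI, a log2 difference of 2.65 (1.24 to 4.2). That difference was not shared by the sexes: male OB cells went from 0.0278 to 0.388, while female OB cells had 5 ligand against 45 decoy UMIs in the vehicle library and 0 against 14 in the teriparatide library. Of the 157 vehicle decoy UMIs behind it, 49 and 39 came from the 2 cells described above. The cell with 49 was male and supplied most of the 72 decoy UMIs of male vehicle OB cells. COP cells had none against 138 decoy UMIs in the vehicle library and 0.124 (0.0934 to 0.163) in the teriparatide library. Cells of the same class also shared both: 27 of 146 vehicle MALP cells with Tnfsf11 (18.5%) and 34 of 84 teriparatide MALP cells with Tnfsf11 (40.5%) had Tnfrsf11b as well.

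**Figure D4:**
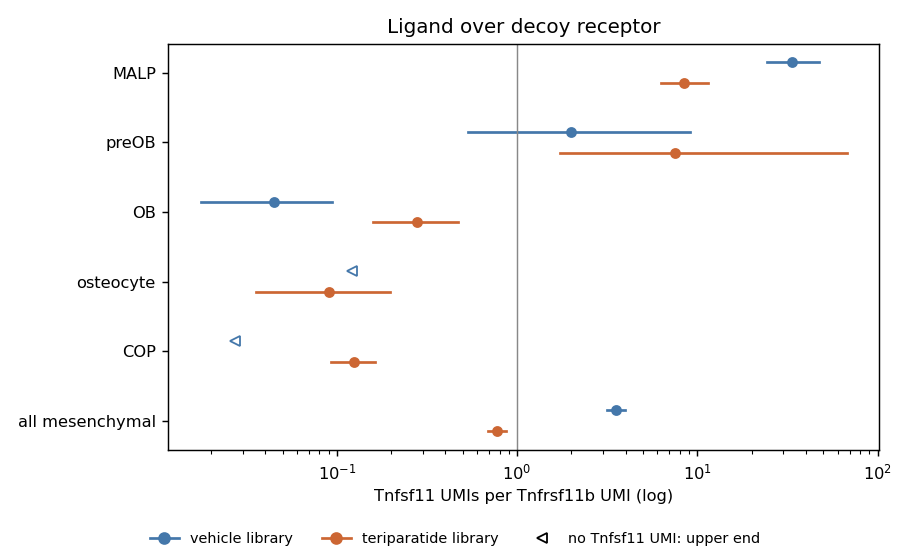
Tnfsf11 UMIs per Tnfrsf11b UMI (log axis) in each class and library, with 95% counting intervals; the vertical line marks equal counts and open triangles the upper end where no Tnfsf11 UMI was found. MALP cells lie at 33.3 (vehicle) and 8.38 (teriparatide), and all mesenchymal cells together at 3.53 and 0.775.

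Summed over all mesenchymal classes the ratio was 3.53 (3.15 to 3.97) in the vehicle library and 0.775 (0.692 to 0.868) in the teriparatide library. The sums of this paragraph leave out unassigned and mural-like cells. Those held 93 and 11 Tnfsf11 UMIs in the teriparatide library, against 3 and 0 in the vehicle library. Their Tnfrsf11b UMIs were 33 and 2, against 12 and 0. Tnfsf11 itself stood at 200 CPM (189 to 211) and 42.5 CPM (39.1 to 46.2), Csf1 at 108 CPM (100 to 116) and 51.8 CPM (47.9 to 55.8), and Tnfrsf11b at 56.7 CPM (51.0 to 62.7) and 54.9 CPM (50.9 to 59.0). The mix of classes accounts for part of this by arithmetic, since MALP cells supplied 30.6% of mesenchymal UMIs in the vehicle library and 9.52% in the teriparatide library. Vehicle class levels weighted by the teriparatide mix give 63.2 CPM of Tnfsf11 (log2 -1.66 from the vehicle value), and teriparatide class levels weighted by the vehicle mix give 116 CPM (log2 -0.78). For Csf1 the same sums are 37.1 CPM (log2 -1.54) and 141 CPM (log2 0.38), on opposite sides of the vehicle value. Tnfrsf11b gave 74.0 CPM (log2 0.39) by mix and 42.6 CPM (log2 -0.41) by level, which offset each other. With 1 sort and 1 library a condition, whether the mix differed in the bone or in what was captured cannot be told apart.

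**Figure D5:**
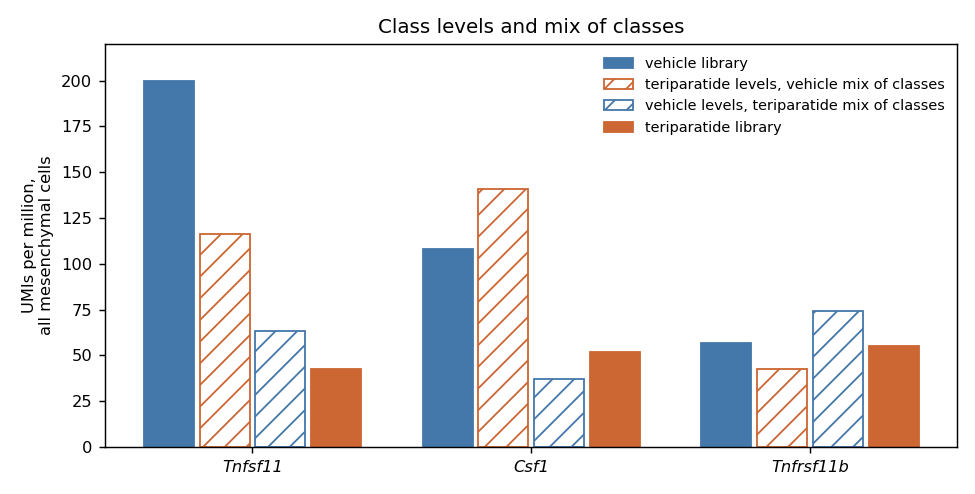
Level over all mesenchymal cells (CPM, bars from 0) of Tnfsf11, Csf1 and Tnfrsf11b in each library (filled bars) and with the class levels of 1 library weighted by the mix of classes of the other (hatched bars). For Tnfsf11 the bars stand at 200, 116, 63.2 and 42.5, and for Csf1 at 108, 141, 37.1 and 51.8.

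The receptors were found in blood cells. Tnfrsf11a, the gene of RANK (chromosome 1, 105780718 to 105847981, plus strand of GRCm38), was rare, with 30 UMIs in all. Monocyte-macrophage cells held 1 UMI in 19 vehicle cells and 19 UMIs in 16 of 107 teriparatide cells (14.7 CPM; 8.83 to 22.9). No mesenchymal cell of either library had a UMI of it, which allows up to 0.457 CPM in 399 vehicle cells and 0.231 CPM in 557 teriparatide cells at 3 counts. In the teriparatide library 16 of its monocyte-macrophage UMIs lay in the 65 cells with a UMI of C1qa, C1qb or Adgre1 (20.8 CPM; 11.9 to 33.8). The other 42 cells held 3 (5.68 CPM; 1.17 to 16.6), and the intervals overlap. Adgre1 was in 54.2% of the class, C1qa in 15.9% and C1qb in 19.6%. Split by Ccr2, another gene that named the class, 18 UMIs lay in the 90 cells with it (14.4 CPM; 8.53 to 22.7). The 17 cells without Ccr2 held 1 (22.6 CPM; 0.573 to 126). The 1 cell that the osteoclast markers named, in the teriparatide library, had 3 UMIs of Tnfrsf11a and 8 of Csf1r beside 134 of Acp5 and 258 of Ctsk, both enzymes of the osteoclast.

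Csf1r lay at 377 CPM (281 to 496) in 19 vehicle monocyte-macrophage cells and at 245 CPM (219 to 273) in 107 teriparatide cells, with a UMI in 16 (84.2%) and 88 (82.2%) of them. The log2 ratio was -0.62 (-1.06 to -0.17), in a class where 15.7% of 3818 genes with 50 or more UMIs were lower and 15.0% higher by 1.5-fold or more. Without the 3 cells with most UMIs in each library it was -0.03 (-0.60 to 0.60), and it was 0.77 (-0.61 to 2.66) in male cells, of which the vehicle library had 2, and -1.07 (-1.79 to -0.35) in female cells. The 3 cells left out held 47.1% of the vehicle and 11.7% of the teriparatide UMIs, so the value of -0.03 trims the libraries unequally. The share of cells with C1qa, a macrophage gene, also differed, at 47.4% of vehicle and 15.9% of teriparatide monocyte-macrophage cells, and its part in the ratio was not tested. Granulocyte-monocyte progenitors of the teriparatide library held 33.9 CPM of Csf1r (21.5 to 50.9; 20 cells), and neutrophils 13.5 CPM (3.69 to 34.6) and 24.6 CPM (19.8 to 30.3), vehicle and teriparatide. OB cells had 2 and 6 UMIs and the other mesenchymal classes none, 6 teriparatide fibroblast-like cells had 3, while 163 teriparatide erythroid cells had 4 UMIs, or 2.1 CPM.

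Genes known to act on RANKL and OPG in stromal cells were read from a list of 14. Of 9 measured in MALP cells 1 was lower by 1.5-fold and none higher, with a median log2 ratio of 0.13 against -0.06 over all genes, of which 9.94% were lower. The 1 was Vdr, the vitamin D receptor, which drives Tnfsf11 transcription: 91.2 CPM in vehicle and 26.7 CPM in teriparatide MALP cells (log2 -1.77; -2.35 to -1.23; male cells -0.77, female cells -1.52). In OB and preOB cells Vdr was instead higher, at 51.1 and 103 CPM (log2 1.01; 0.70 to 1.33) and at 66.2 and 201 CPM (log2 1.60; 0.81 to 2.48). In OB cells the Vdr ratio was 0.22 in male and 1.97 in female cells. Il1r1, the interleukin-1 receptor, and Mmp14, a protease that sheds membrane-bound RANKL, were somewhat higher in MALP cells (log2 0.37; 0.16 to 0.58 and log2 0.44; 0.26 to 0.61). Pth1r, the receptor that teriparatide binds, which was named here after its values were seen, was at 152 CPM in MALP cells of both libraries (log2 -0.00; -0.27 to 0.26).

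In COP cells, where 8.02% of all genes were higher and 16.9% lower, the counts were 2 of 10 measured genes higher (Pth1r and, on 6 and 47 UMIs, Vdr) and 5 lower (Il11, Mmp14, Il1r1, Adam10 and Adam17). Pth1r was at 339 and 690.0 CPM (log2 1.03; 0.91 to 1.15), against 1.07 for male and 0.38 for female cells alone. By cluster, vehicle and teriparatide COP cells held 342 and 773 CPM of Pth1r where Mmp13 led, 191 and 571 where Igf1 led, and 489 and 731 among dividing cells, so the cluster with most Tnfsf11 was not the only one with more Pth1r. Il11, a cytokine of the interleukin-6 family, and Mmp14 were lower (log2 -2.15; -2.91 to -1.39 and log2 -1.27; -1.46 to -1.09). Il11 stood at -2.26 in male COP cells, but in female COP cells only the teriparatide library had it. Mmp14 stood at -1.43 in male and -0.37 in female cells. In OB cells 1 of 7 measured genes of the list was higher (Vdr), against 5.92% of all genes, while Lgr4, a second receptor for RANKL, was at 46.9 and 33.3 CPM (log2 -0.49; -0.91 to -0.08) and Adam10, another sheddase, at 60.3 and 90.2 CPM (log2 0.58; 0.28 to 0.89). Lgr4 stood at -0.64 in male and 0.61 in female OB cells. In preOB cells 3 of 5 were higher, against 9.96% of all genes, namely Vdr, Adam10 (log2 1.29; 0.42 to 2.26) and Il6st, the shared signal chain of interleukin-6 receptors (log2 0.80; 0.21 to 1.43), although Il6st stood at 1.79 in male and -1.07 in female cells. In monocyte-macrophage cells 1 of 6 was higher (Lif, on 3 and 57 UMIs) and 2 lower, against 15.0% and 15.7% of all genes. The 2 were Adam17 (log2 -1.01; -1.72 to -0.24) and Il6 (log2 -0.83; -1.40 to -0.21), but Il6 stood at 0.04 in male cells alone and 0.07 in female cells alone.

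Of the 12 other stromal signals to osteoclasts, 8 were measured in MALP cells, 1 higher and 1 lower, against 7.56% and 9.94% of all genes. Ccl2, a chemokine that draws monocytes, was at 40.3 and 13.8 CPM (log2 -1.55; -2.40 to -0.79), and Cd200, a membrane ligand for myeloid cells, at 69.2 and 118 CPM (log2 0.77; 0.43 to 1.12). Cd200 was also the member of this list with the widest difference in COP cells, at 3.90 and 49.3 CPM (log2 3.66; 2.60 to 4.98; male cells 3.75, female cells 2.05), where 1 of 7 was higher and 3 lower, Cxcl12 (log2 -1.94; -2.77 to -1.10) and Cthrc1 (log2 -0.83; -0.96 to -0.70) among the latter with Wnt5a. Cxcl12 in OB cells was at 54.9 and 20.3 CPM (log2 -1.44; -1.91 to -0.97), against -2.73 for male and 0.26 for female cells alone, the only lower gene among 7. In preOB cells 1 of 6 was higher, Wnt5a (log2 1.02; 0.13 to 2.01), and 1 lower, Cthrc1 (log2 -0.67; -0.95 to -0.40). None of 3 passed in monocyte-macrophage cells. Over all genes the shares higher and lower were 8.02% and 16.9% in COP cells, and 5.92% and 12.7% in OB cells. In preOB cells they were 9.96% and 19.9%, and in monocyte-macrophage cells 15.0% and 15.7%. Il34, the second ligand of the M-CSF receptor, also named after its values were seen, was at 118 and 95.5 CPM in MALP cells (log2 -0.31; -0.64 to 0.02).

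The osteoclast precursor list of 13 genes and the resorption list of 11 were read first in the monocyte-macrophage class. There 2 of 7 precursor genes were higher and none lower, against 15.0% and 15.7% of all genes in that class, with a median of 0.04. The 2, outside the naming rule and chosen after their values were seen, were Nfatc1, the master regulator of osteoclast formation, with 1 vehicle and 54 teriparatide UMIs (log2 2.49; -0.05 to 7.82), and Trem2, with 3 and 74 (log2 1.36; -0.24 to 3.67), both with intervals that include 0. Resorption genes passed in 0 of 2 measured there. Ctsk, Acp5, Atp6v0d2, Calcr, Dcstamp and Ocstamp of that list also named the osteoclast class, so cells rich in them were placed outside the monocyte-macrophage class. Ctsk had no UMI in monocyte-macrophage cells. It had 641 and 348 UMIs in MALP cells and 405 and 591 in OB cells, vehicle and teriparatide. Among mesenchymal classes Fos was lower in MALP (log2 -1.08; -1.19 to -0.97), OB (log2 -1.24; -1.34 to -1.15) and preOB cells (log2 -1.2; -1.60 to -0.80), while COP cells stood at -0.05 (-0.08 to -0.01). By sex, Fos stood at 0.13 in male and -1.38 in female COP cells. In male and female cells it was -0.81 and -3.20 in MALP, -1.19 and -2.14 in OB, and -0.56 and -2.41 in preOB. MALP cells also had Nfkb2 lower (log2 -1.34; -2.20 to -0.56), Fcer1g higher (log2 0.59; 0.06 to 1.11) and Tcirg1 at -0.55 (-0.99 to -0.12), in all 1 higher and 2 lower of 6 precursor genes and none of 4 resorption genes. Fcer1g stood at 0.41 in male MALP cells, but in female MALP cells only the vehicle library had it. Tcirg1 stood at -0.88 in male and 0.07 in female cells. The other counts were 0 higher and 1 lower of 3 precursor and of 3 resorption genes in OB (for resorption Car2, log2 -1.03; -1.53 to -0.54, against 1.56 for male and -0.47 for female cells alone), 0 and 1 of 1 and none of 1 in preOB, and 0 and 3 of 6 and 0 and 1 of 3 in COP, where Ctsk was at -0.90 (-1.18 to -0.62), Relb at -0.75 (-1.24 to -0.23) and Nfkb1 at -0.68 (-0.94 to -0.41). Over all genes the shares higher and lower were 7.56% and 9.94% in MALP cells, and 5.92% and 12.7% in OB cells. In preOB cells they were 9.96% and 19.9%, and in COP cells 8.02% and 16.9%.

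Across the 16 class and library sums with at least 20 cells, the genes with the pattern most like each member were ranked by Pearson r of log2(CPM + 1), among 9465 genes. These sums share libraries, and r is a description. Tnfsf11 was closest to Ank3 (r = 0.939), Gnao1 (0.935), Ghr (0.931), Epas1 (0.929) and Cygb (0.923), and Csf1 to C1ra (0.926), Gprin3 (0.926), Lamb1 (0.922), Fst (0.922) and Olfml2a (0.922). Tnfrsf11b was closest to Tanc2 (0.964), Kank1 (0.962), Larp6 (0.959), Nrbp2 (0.959) and Slc39a14 (0.956). No gene stood in the lists of both Tnfsf11 and Csf1. Csf1r was closest to the myeloid genes Ccr2 (0.966), Ccl3 (0.966), Cd300a (0.965), Clec4a1 (0.960) and Ear2 (0.960), of which Ccr2 was used to name the class, and Tnfrsf11a, on 30 UMIs, to Ms4a4c (0.958), F10 (0.952), Ms4a6d (0.937), Ms4a6b (0.920) and Aif1 (0.917).

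By the annotation the 5 genes are protein coding and lie apart on build GRCm38, which the files name mm10. Tnfsf11 spans 78277445 to 78308043 on chromosome 14, Csf1 107741048 to 107760469 on chromosome 3 and Tnfrsf11b 54250619 to 54278484 on chromosome 15, each on the minus strand, and Csf1r spans 61100598 to 61132149 on chromosome 18, on the plus strand.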

How the data were processed

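Single cells were profiled with 10x 3′ version 2 chemistry. Per the labels, the authors used Cell Ranger 2.1.0 to align reads to mm10 and to count UMIs (the matrix header names software 3.1.0), and the deposited values are raw UMI counts for barcodes called as cells. Barcodes with 200 to 6000 genes and at most 10% mitochondrial UMIs were kept, and 55.8% of vehicle and 40.2% of teriparatide barcodes were over the mitochondrial limit. Library totals were 10567335 UMIs for vehicle and 26270041 for teriparatide. Each cell took the class with the highest marker score if it led the next by 0.05, and 1 and 4 mesenchymal cells with Ptprc were left out. No doublet caller was run. UMIs were summed by class and library and given as CPM with exact Poisson intervals, log2 ratios with conditional Clopper-Pearson intervals and shares of cells with exact binomial intervals. With 1 library a condition no test of treatment was made, and intervals and floors (3 counts) cover counting error only. A list gene was counted as higher or lower past 1.5-fold with 50 or more UMIs, and the 3 with the largest log2 ratio per list and class whose interval left out 0 were named, besides the 5 genes most like each member. The members and the 4 lists were chosen with earlier results of these data known. Alternatives were a 20% mitochondrial limit, a wider margin, clusters of the integrated libraries (Seurat 5.3.0, R 4.3.3, 20 components, resolution 0.6), each sex alone, thinning to 3400 UMIs, scaling to the median gene, other UMI minimums and leaving out the 3 cells with most UMIs. Ratio and interval code was tested on simulated data. Python 3.11.15, numpy 2.4.6, scipy 1.17.1, pandas 2.3.3 and matplotlib 3.10.9 were used.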

Additional observations from a re-analysis of the deposited data

Results flagged for a closer look

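Tnfrsf11b, the OPG gene, differed between the libraries in opposite directions in male and female OB cells, with log2 ratios of teriparatide over vehicle of -2.20 and 1.38. Of the 72 male vehicle UMIs 49 came from 1 cell, and the female ratio rested on 6 teriparatide cells with 14 UMIs. Neither ratio therefore gives more than the values of few cells. Tnfrsf11b also ran in opposite directions between classes, at 1.14 in MALP cells against -1.42 in OB, -0.87 in osteocyte-like and -0.30 in COP cells. With 1 library a condition, none of these differences between sexes or classes was tested.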

How the results depend on the processing

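Of 302 alternative values over 53 results, 218 stayed within the counting interval of the reported value (within 1.5 times for counts of genes), 78 moved outside it and 6 turned a log2 ratio whose interval left out 0 to the other sign. These 6 were Tnfsf11 in MALP cells without Adipoq (1.11), Tnfrsf11b in female OB cells (1.38), Tnfrsf11b without the 3 cells with most UMIs in COP (0.22) and osteocyte-like cells (0.33), Csf1 in male OB cells (-0.42) and Csf1r in male monocyte-macrophage cells (0.77). Of the 30 male vehicle OB UMIs of Csf1, 19 came from 1 cell. A further 3 changed sign where the reported interval included 0, namely Tnfsf11 in male preOB cells (-1.0) and Tnfrsf11b in preOB in integrated clusters (0.56) and in female cells (1.0). Within male cells the ratios in MALP were -0.56 for Tnfsf11 and 0.15 for Csf1, and the log2 of Tnfsf11 over Tnfrsf11b in vehicle MALP cells was 4.33 in male and 6.15 in female cells. Tnfrsf11b in MALP cells was 2.09 in female cells and 1.89 without Adipoq, where Csf1 was 0.16. Tnfrsf11b in OB was -2.20 in male cells, -0.64 in integrated clusters, -2.46 after thinning and -0.69 without the 3 cells with most UMIs. Among list genes in MALP cells a minimum of 20 UMIs gave 5 higher against 2, and 200 UMIs gave 1 higher and 2 lower against 2 and 4. The Adipoq split, the mix of classes, the COP clusters and the Cxcl12 proportion were chosen after seeing the data. Leaving out 3 cells took a larger share of UMIs from the smaller vehicle classes of COP, osteocyte-like and monocyte-macrophage cells, so those values do not compare like with like. The causes of these changes were not tested. No paired analysis was possible because each condition has 1 library. The vehicle library had few preOB, osteocyte-like and monocyte-macrophage cells, and the teriparatide library few female cells, which limits those ratios most.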
